A study of Mus musculus with 14 samples.

Results

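The proteasome is the protease that degrades ubiquitin-tagged proteins. Its 20S core is a barrel of alpha and beta rings with 3 kinds of catalytic beta subunit inside, and it is opened by the 19S regulatory particle, whose ATPases unfold the substrate, or by other activators such as PA28 and PA200. Dedicated chaperones assemble both parts, and interferon-gamma replaces the catalytic subunits with inducible ones and raises PA28, which together form the immunoproteasome that makes peptides for antigen presentation. In kidney the constitutive proteasome is present in all cell types, and the inducible subunits are best known from immune cells and inflamed tissue.

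The genes described here were the protein-coding mouse genes whose symbols start with Psma, Psmb, Psmc, Psmd, Psme, Psmf or Psmg, with the inducible subunits Psmb8, Psmb9 and Psmb10 left out of the set. The rule found 47 of the 47729 genes listed in each count file. They were 31 core subunits of the 26S particle, made up of 7 alpha subunits (Psma1 to Psma7), 4 non-catalytic beta subunits (Psmb1 to Psmb4), 3 catalytic beta subunits (Psmb5, Psmb6 and Psmb7), 6 ATPases of the 19S base (Psmc1 to Psmc6) and 11 other 19S subunits named Psmd. The remaining members were 4 chaperones of 20S assembly (Psmg1 to Psmg4), 3 chaperones of 19S assembly (Psmd5, Psmd9 and Psmd10), 5 genes of activators (Psme1, Psme2, Psme2b, Psme3 and Psme4), the inhibitor PI31 (Psmf1), a testis alpha subunit (Psma8), a thymus beta subunit (Psmb11) and Psmc3ip, which carries the prefix because its protein binds an ATPase subunit and is not itself a subunit. All but Psmb11, which had 0 to 2 counts in any library, passed the filter on low counts, so 46 members were tested.

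Messenger RNA of whole mouse kidney was sequenced in 14 libraries. There were 4 libraries of kidneys labelled SMOC2 transgenic after 7 days of unilateral ureteral obstruction (UUO, closure of the ureter of a single kidney, a model of kidney fibrosis), 4 of wild-type (WT) kidneys after the same obstruction, 3 of untreated kidneys labelled SMOC2 transgenic and 3 of untreated WT kidneys, the untreated ones being called normal. The labels give neither the promoter of the transgene, nor age or strain in the sample fields. They do not state that libraries are separate animals either, and p-values then describe only the scatter among these samples, which may be technical. A protocol text on the same samples describes another model, folic acid in Balb/c mice, and was not used for the grouping. Smoc2 itself was at 123.6, 89.9, 83.9 and 87.1 CPM (counts divided by the TMM-scaled library total, on a common scale) in the SMOC2 UUO libraries, against 150.4, 130.8, 157.7 and 148.5 CPM in the WT UUO libraries. In normal kidney it was at 27.8, 26.9 and 10.6 CPM in the libraries labelled SMOC2, against 12.6, 19.7 and 43.3 CPM in the WT ones. No excess of Smoc2 counts marked the libraries labelled SMOC2, and every SMOC2 UUO library lay below every WT UUO library. Genotype is therefore given here as a label.

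Total counts ran from 19483994 to 30033405 per library. The members took 0.407 to 0.444% of all counts in UUO libraries, against 0.321 to 0.367% in normal libraries. The scaling factors by the trimmed mean of M-values (TMM) also separated these groups, at 1.13 to 1.196 in UUO libraries, against 0.801 to 0.855 in normal libraries, so the direction of small changes depended on how libraries were scaled. Of 10 proximal tubule markers, 10 fell after UUO in both genotypes, and their summed level was 3446 to 4466 CPM in SMOC2 UUO and 2145 to 6137 CPM in WT UUO, against 39830 to 49140 CPM in SMOC2 normal and 36350 to 49620 CPM in WT normal. Of 10 macrophage markers, 9 rose in the SMOC2 comparison and 10 in the WT comparison, with sums of 1574 to 2454 CPM in SMOC2 UUO and 2017 to 2296 CPM in WT UUO, against 238 to 281 CPM in SMOC2 normal and 226 to 259 CPM in WT normal. None of these markers was at 0 in every library. In whole tissue, fewer cells of a type and less RNA per cell cannot be told apart, and the part of the shift in cell types in the changes of the members was not tested.

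Within both normal groups 1 library stood apart in these genes. WT normal 2 held the highest level of its group for 31 of the 31 core subunits, and SMOC2 normal 3 did so for 26 of 31. In the 4 SMOC2 UUO and 4 WT UUO libraries, no library held the highest level for more than 13 of 31. The median core subunit was at 6.77 on the log2(CPM + 0.5) scale in SMOC2 normal 3, against 6.59 and 6.66 in the other SMOC2 normal libraries, and at 6.79 in WT normal 2, against 6.54 and 6.57 in the other WT normal libraries. The calls that were lost without 1 of these 2 libraries are named with the results below.

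**Figure D1:**
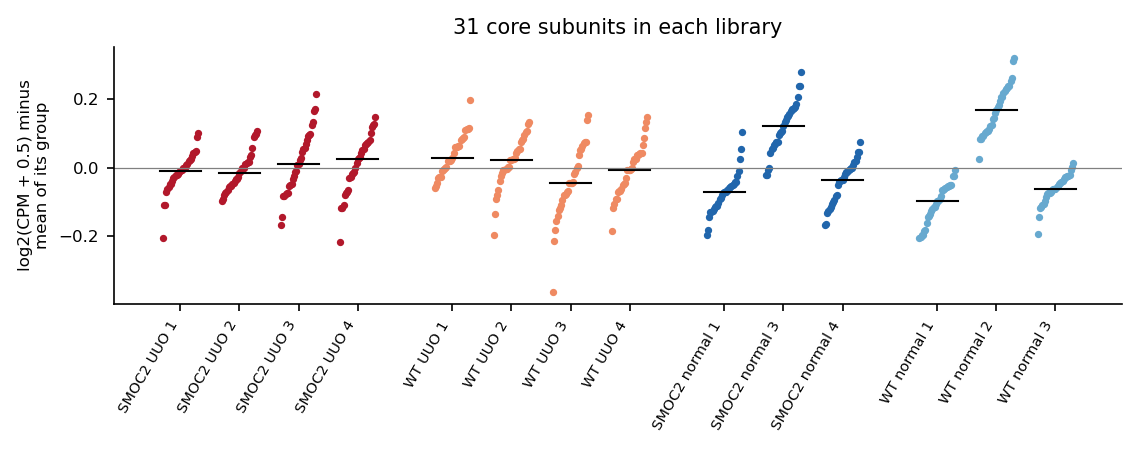
Deviation of each core subunit from the mean of its own group, in log2(CPM + 0.5), for each of the 14 libraries. Every dot is 1 of 31 core subunits, ordered by value within its library, and the bar is the median. WT normal 2 lies above its group for all 31 subunits and SMOC2 normal 3 holds the highest value for 26 of them.

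Obstruction split the proteasome genes. With TMM scaling, the PA28 genes Psme1 and Psme2 rose, most of the genes of the 20S and 19S particles moved little, and a small group headed by Psmd3 fell in both genotypes. By edgeR's quasi-likelihood test at a Benjamini-Hochberg adjusted p under 0.05 over 17926 genes, 5 members were higher and 20 lower in SMOC2 UUO than in SMOC2 normal, while 32.5% of all genes were higher and 30.4% lower. In WT UUO against WT normal, 7 members were higher and 18 lower, while 31.3% of all genes were higher and 29.8% lower. The 7 include Psma8, whose few counts passed the filter only through UUO libraries. Groups did not overlap, with UUO above normal, for 5 members in the SMOC2 comparison, against 32.6% of all genes, and 7 in the WT comparison, against 31.3%, and with UUO below normal for 23 members, against 30.1%, and 17, against 29.5%. Calls in either direction made up 62.8% of all genes in the SMOC2 comparison and 61.1% in the WT comparison.

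The changes were small. The median absolute log2 fold change of the members was 0.27 in the SMOC2 comparison, against 0.61 over all genes tested, and 0.25 in the WT comparison, against 0.57. A change of at least 2-fold was seen in 1 member in the SMOC2 comparison (Psmd3) and 4 in the WT comparison (Psma8, Psmd3, Psme2 and Psme2b), or 2.17% and 8.70% of the 46, while 34.5% and 32.6% of all genes moved as far. The median level was 87.7 CPM for the members and 18.1 CPM for all genes tested, so these sizes compare genes of unlike level. The 2 comparisons share no library. The sign was the same in 41 of 46 members (89.1%), against 88.7% of all genes. In both comparisons 5 members (10.9%) were called higher and 13 (28.3%) lower, against 27.3% and 26.0% of all genes, and 0 members and 0.0279% of all genes were called in opposite directions.

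**Figure D2:**
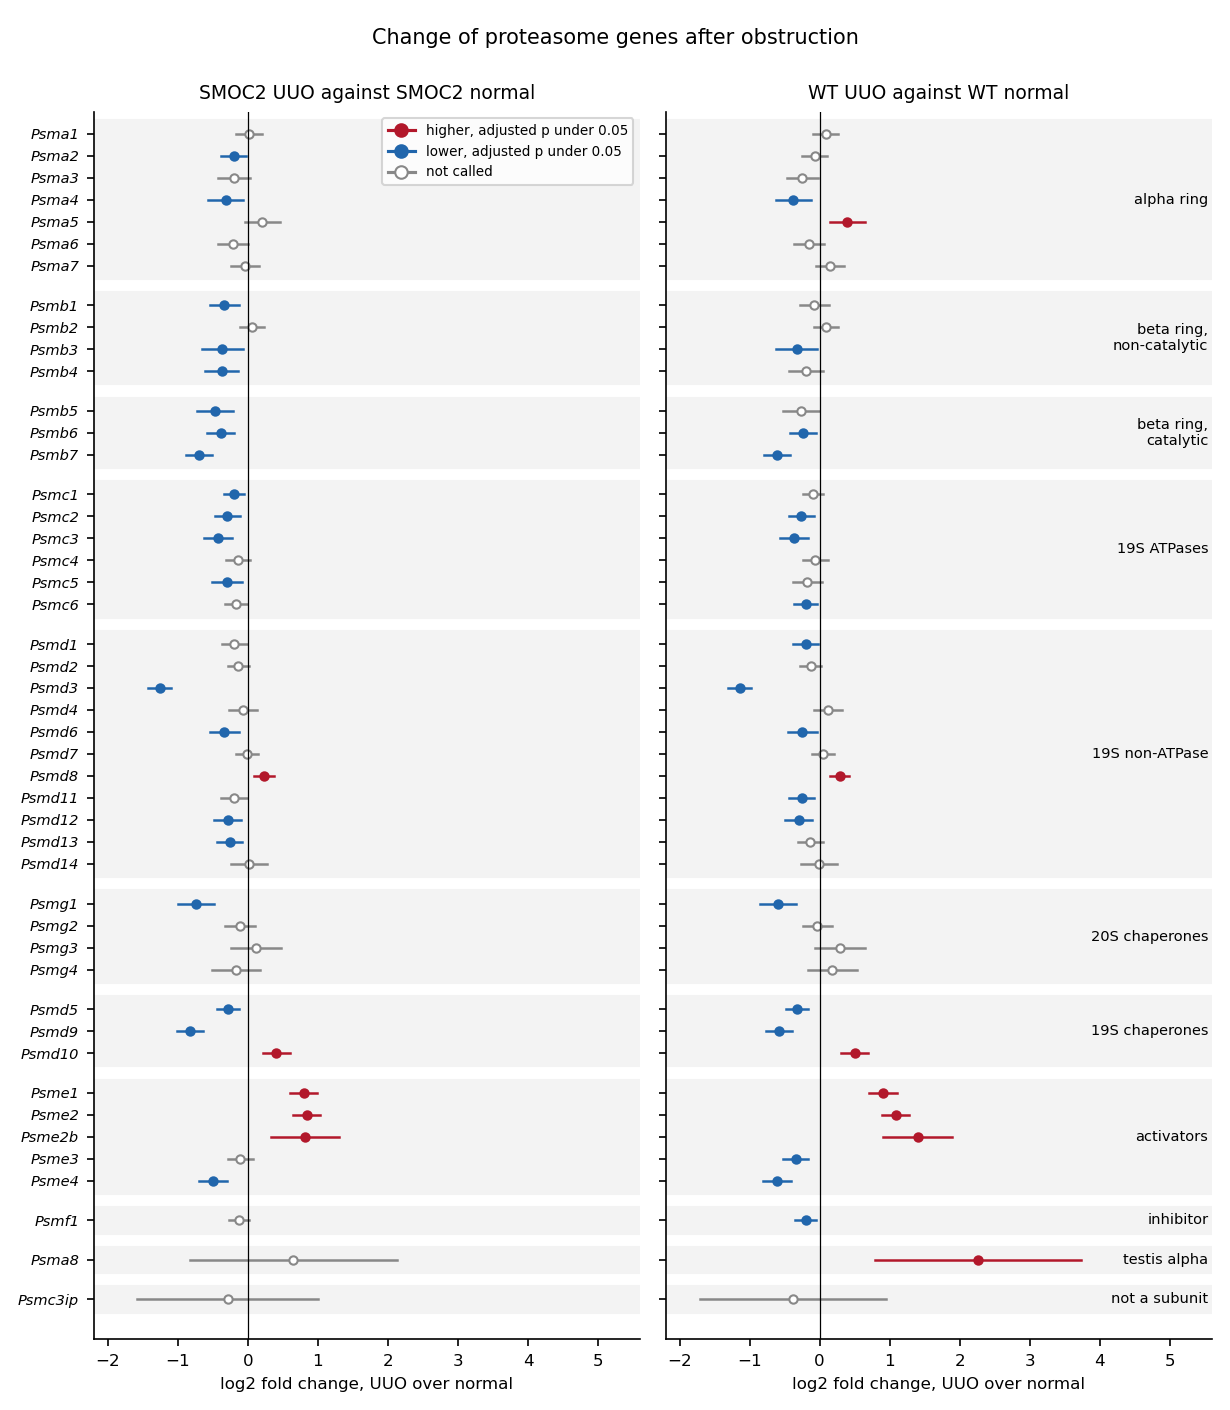
Log2 fold change of UUO over normal for the 46 members tested, with its 95% interval, grouped by role, in the SMOC2 comparison (left) and the WT comparison (right). Filled red and blue points were called higher or lower by edgeR's test at an adjusted p under 0.05. Psme1, Psme2 and Psme2b lie to the right of 0 in both panels and Psmd3 furthest to the left.

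The balance of calls depended on the scaling. With TMM scaling the members' median log2 fold change minus that of all genes was -0.23 in the SMOC2 comparison and -0.21 in the WT comparison. Other scalings left this difference almost as it was, since they shift all genes nearly alike. The median itself was -0.20 in the SMOC2 comparison with TMM scaling, where all genes had a median of 0.04, and 0.30 when libraries were scaled by their totals, where all genes had 0.54. In the WT comparison these medians were -0.16 against 0.05 with TMM, and 0.31 against 0.52 with library totals. With library totals, 29 members were higher and 3 lower in the SMOC2 comparison, while 57.9% of all genes were higher and 15.6% lower. In the WT comparison 31 members were higher and 1 lower, while 56.1% of all genes were higher and 15.2% lower. Upper-quartile scaling gave 6 members higher and 9 lower in the SMOC2 comparison, against 38.0% and 25.7% of all genes, and 9 higher and 8 lower in the WT comparison, against 36.5% and 25.2%. The calls that stood under all 4 scalings were the rises of Psmd8, Psmd10, Psme1, Psme2 and Psme2b and the falls of Psmb7, Psmd3 and Psmd9 in the SMOC2 comparison, and the rises of Psma5, Psma8, Psmd8, Psmd10, Psme1, Psme2 and Psme2b and the fall of Psmd3 in the WT comparison. Over all genes, 32.3% were higher and 15.6% lower under all 4 scalings in the SMOC2 comparison, and 31.1% and 15.2% in the WT comparison.

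**Figure D3:**
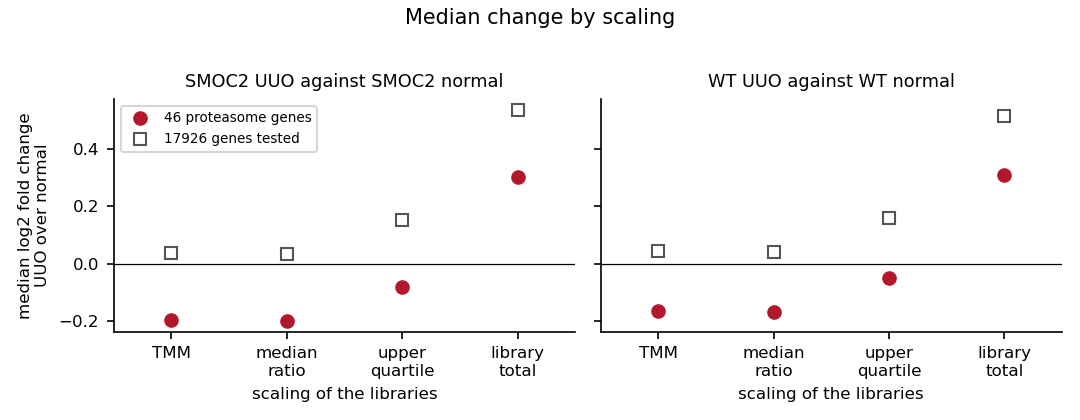
Median log2 fold change of UUO over normal of the 46 members (red circles) and of all 17926 genes tested (open squares), under TMM, median-ratio, upper-quartile and library-total scaling. Both medians move together, the members always lying below all genes, and the members' median changes sign with library totals.

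Summed by length, the messenger RNA of the core subunits of the 26S particle was lower after obstruction with TMM scaling. This direction depends on the scaling, and the sums were not made with library totals. As a share of all counts, the members took 0.407 to 0.444% in UUO libraries, against 0.321 to 0.367% in normal ones. The amount of the particle itself was not measured. The 31 core subunits together had 2067 ± 46.1 CPM per kb of transcript in SMOC2 UUO (SD, n = 4), against 2462 ± 177 in SMOC2 normal (SD, n = 3). They had 2070 ± 46.4 CPM per kb in WT UUO (SD, n = 4), against 2305 ± 244 in WT normal (SD, n = 3). The sums per library were 2033, 2034, 2131 and 2069 in SMOC2 UUO, against 2319, 2660 and 2407 in SMOC2 normal, which did not overlap. In WT UUO they were 2125, 2092, 2033 and 2031, against 2144, 2586 and 2185 in WT normal, and the lowest normal library was close to the highest UUO library. The mean sum in UUO minus that in normal was -395 in the SMOC2 comparison and -296 without SMOC2 normal 3, and -235 in the WT comparison and -94.5 without WT normal 2.

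Levels per length differed about 10-fold between core subunits that stand in the particle in equal numbers. Psmb6 had the highest level in all 4 groups, at 177 CPM per kb in SMOC2 UUO, 169 in WT UUO, 232 in SMOC2 normal and 199 in WT normal. The lowest was Psmb5 in both UUO groups, at 19.55 CPM per kb in SMOC2 UUO and 18.6 in WT UUO, and Psma5 in both normal groups, at 22.3 in SMOC2 normal and 21.95 in WT normal. The ratio of the highest to the lowest was 9.04 in SMOC2 UUO, 9.05 in WT UUO, 10.4 in SMOC2 normal and 9.05 in WT normal. Psmb5, Psmb6 and Psmb7 have processed pseudogenes in the annotation, so their counts are uncertain.

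Psme1 and Psme2 encode the alpha and beta subunits of PA28, a ring that caps the 20S core without ATP and favours the making of short peptides. Both genes lie on chromosome 14 and are read on opposite strands. Because they were the members that rose most at an appreciable level, the stretch around each start site is shown, from 120 bases before to 30 bases after it, 5′ to 3′ on the gene's strand (RefSeq, GRCm38.p6). The stretches are chr14:55578374-55578523 on the plus strand for Psme1 and chr14:55591072-55591221 on the minus strand for Psme2, and capitals mark the letters of the interferon-stimulated response element that were searched for.
Psme1: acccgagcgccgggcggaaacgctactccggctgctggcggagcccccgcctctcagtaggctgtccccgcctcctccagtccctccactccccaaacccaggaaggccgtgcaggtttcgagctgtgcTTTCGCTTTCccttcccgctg
Psme2: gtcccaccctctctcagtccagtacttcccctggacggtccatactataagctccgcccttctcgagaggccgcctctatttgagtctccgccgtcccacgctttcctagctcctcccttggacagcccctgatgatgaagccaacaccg

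The search was for GAAA, any 2 bases and GAAA again on both strands, in windows from 250 bases before to 50 after the RefSeq start site. Of the 47 members, 39 had at least 1 such window, and Psma8, Psmb1, Psmb2, Psmb7, Psmc3, Psmd3, Psmd7 and Psmg2 had none. The letters occurred in 5 of 39 members (12.8%) and in 3.99% of all 27025 windows. A member with more than 1 start site, such as Psmc2, has more than 1 window, so these shares are not like for like. The matches are shown with 10 bases on either side, since their genes moved differently, on the gene's strand of each (chr14:55578493-55578522 plus, chr5:123228021-123228050 plus, chr11:97703261-97703290 plus, chr3:95042675-95042704 minus and chr13:34162969-34162998 plus, in the order shown), with the match in capitals.
Psme1: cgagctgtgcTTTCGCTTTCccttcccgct
Psmd9: gggacagaatGAAAAAGAAAggaatgaaca
Psmb3: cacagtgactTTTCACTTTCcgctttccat
Psmd4: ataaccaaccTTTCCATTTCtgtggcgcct
Psmg4: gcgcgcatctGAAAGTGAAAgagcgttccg

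Of these 5 genes, Psme1 rose and Psmd9 and Psmb3 fell in both comparisons with TMM scaling, Psmb3 being above 0 with library totals. Psmd4 had log2 fold changes of -0.07 in the SMOC2 comparison and 0.11 in the WT comparison, and Psmg4 had -0.17 and 0.18, none of them called with TMM scaling. A match to these letters is a description of the window and no evidence of binding.

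Psme1 was at 104.5, 109.5, 127.6 and 128.8 CPM in SMOC2 UUO, against 62.55, 68.1 and 72.3 CPM in SMOC2 normal. It was at 122.5, 122.4, 121.5 and 136.3 CPM in WT UUO, against 63.2, 71.8 and 66.4 CPM in WT normal. Every UUO library lay above every normal library. The log2 fold change was 0.80 ± 0.09 (SE) in the SMOC2 comparison, with an adjusted p of 3.7e-06 by edgeR, and 0.91 ± 0.09 in the WT comparison, with an adjusted p of 1.3e-06.

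Psme2 was at 86.0, 83.9, 94.5 and 89.9 CPM in SMOC2 UUO, against 44.3, 52.6 and 51.55 CPM in SMOC2 normal. In WT UUO it was at 95.35, 89.1, 96.6 and 99.6 CPM, against 39.7, 50.2 and 44.4 CPM in WT normal, again without overlap. The log2 fold change by edgeR was 0.84 ± 0.09 (SE) in the SMOC2 comparison, with an adjusted p of 1.8e-06, and 1.09 ± 0.09 in the WT comparison, with an adjusted p of 2.1e-07. The rises of Psme1 and Psme2 were called under each of 4 scalings and with each library left out. Psme2b, an intronless near-copy of Psme2 on chromosome 11, was at 1.63 ± 0.28 CPM in SMOC2 UUO (SD, n = 4), against 0.92 ± 0.04 in SMOC2 normal (SD, n = 3). It was at 1.87 ± 0.28 CPM in WT UUO (SD, n = 4), against 0.70 ± 0.10 in WT normal (SD, n = 3), and its counts are uncertain, since reads of Psme2 can match it.

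The other activators were not called higher with TMM scaling. Psme3, which encodes PA28 gamma, a nuclear form of the ring, was at 100.8, 110.0, 89.65 and 95.7 CPM in SMOC2 UUO, against 114.9, 101.8 and 103.6 CPM in SMOC2 normal, and the groups overlapped. It was not called there with TMM scaling, but was called higher with library totals, at a log2 fold change of 0.39. It was at 85.4, 94.6, 78.5 and 89.6 CPM in WT UUO, against 108.5, 111.3 and 110.2 CPM in WT normal, and fell there with TMM scaling (log2 fold change -0.34 ± 0.08, SE, edgeR adjusted p 0.00283), though it was above 0 with library totals, at 0.13. Whether this change differed between genotypes was tested by the interaction, whose log2 value was 0.23 (adjusted p 0.789).

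Psme4 encodes PA200, a large nuclear cap. It was at 114.5, 111.6, 105.9 and 115.3 CPM in SMOC2 UUO, against 163.9, 152.2 and 158.7 CPM in SMOC2 normal. In WT UUO it was at 124.8, 119.3, 94.1 and 126.9 CPM, against 166.1, 177.6 and 186.7 CPM in WT normal. Both pairs of groups were apart, with log2 fold changes of -0.50 ± 0.09 (SE) in the SMOC2 comparison and -0.61 ± 0.09 in the WT comparison (edgeR adjusted p 0.000349 and 7.1e-05). With library totals the values were -0.00087 and -0.14 and not called. The inhibitor Psmf1 was at 37.2, 42.3, 39.3 and 41.8 CPM in SMOC2 UUO, against 42.8, 44.8 and 43.8 CPM in SMOC2 normal, and was not called there (log2 fold change -0.13, edgeR adjusted p 0.121). It was at 37.8, 39.3, 41.3 and 39.15 CPM in WT UUO, against 45.7, 47.8 and 42.5 CPM in WT normal, a fall of 0.20 on the log2 scale (edgeR adjusted p 0.0196) that lost its call in 4 of 7 fits with 1 library left out, WT normal 2 among them (-0.16), and was above 0 with library totals in both comparisons, at 0.37 in the SMOC2 comparison and 0.27 in the WT comparison.

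**Figure D4:**
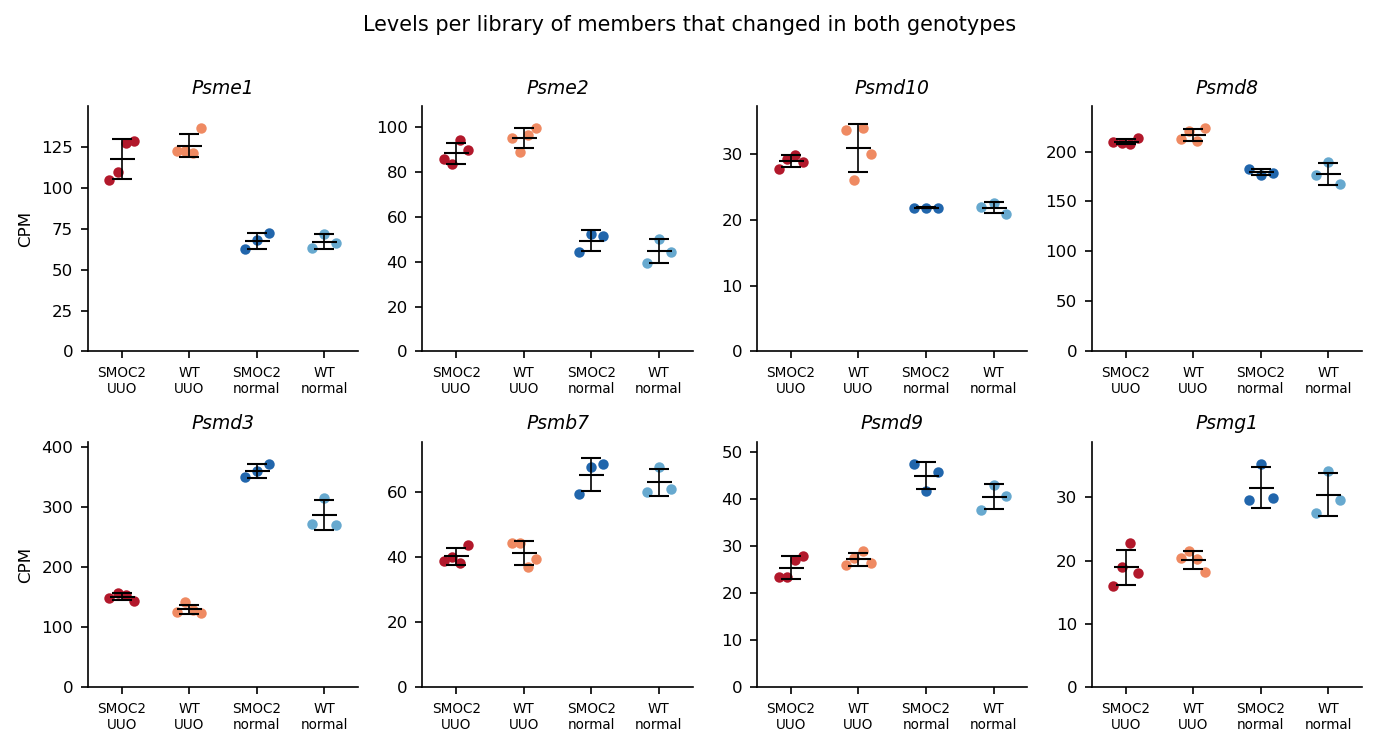
CPM of 8 members called in both comparisons, 1 dot per library, with the mean and SD of each group in black, for SMOC2 UUO and WT UUO (n = 4 each) and SMOC2 normal and WT normal (n = 3 each). In the upper row the UUO libraries lie above the normal ones and in the lower row below them, without overlap within a genotype.

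The catalytic beta subunits lay lower after obstruction with TMM scaling. Psmb5 carries the chymotrypsin-like activity, Psmb6 the caspase-like and Psmb7 the trypsin-like. All 3 fell in the SMOC2 comparison, and Psmb6 and Psmb7 did in the WT comparison. Of all genes, 30.4% fell in the SMOC2 comparison and 29.8% in the WT comparison. NRF1, the transcription factor encoded by Nfe2l1, is known to raise proteasome genes through antioxidant response elements, and since Psmb5 and Psmb6 hold the letters TGACNNNGC of such an element near their start sites, both matches are shown with the bases around them, on the gene's strand (RefSeq, GRCm38.p6, chr14:54618023-54618052 minus and chr11:70525338-70525367 plus), with the match in capitals.
Psmb5: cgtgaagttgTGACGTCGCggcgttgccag
Psmb6: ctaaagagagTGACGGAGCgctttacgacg

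These letters occurred in 6 of 39 members with a window (15.4%) and in 13.99% of all windows. The ETS letters CCGGAAG occurred in 15 of 39 windows (38.5%), against 9.93% of all. Genes with that match included members that fell in both comparisons with TMM scaling (Psmc2, Psmd6, Psmd12, Psme4 and Psmg1) and members not called in either (Psma6, Psmc3ip, Psmd2, Psmd4 and Psmg3).

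Psmb7 was at 38.9, 40.1, 38.2 and 43.9 CPM in SMOC2 UUO, against 59.6, 68.0 and 68.7 CPM in SMOC2 normal. It was at 44.5, 44.3, 36.9 and 39.4 CPM in WT UUO, against 60.2, 67.8 and 61.2 CPM in WT normal. All UUO libraries were below all normal ones, with log2 fold changes of -0.70 ± 0.09 (SE) and -0.61 ± 0.09 in the SMOC2 and WT comparisons (edgeR adjusted p 7.5e-06 and 3.0e-05). With library totals they were -0.20 and -0.14, the first still called. Exons of Psmb7 share 11.8% of their bases with Nek6 on the opposite strand, and the strand setting of the counting is not given in the sources used here.

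Psmb6 was at 130.6, 138.0, 157.9 and 137.9 CPM in SMOC2 UUO, against 169.7, 203.0 and 182.1 CPM in SMOC2 normal. In WT UUO it was at 142.5, 136.9, 132.6 and 126.2 CPM, against 155.7, 172.2 and 147.8 CPM in WT normal. The log2 fold changes were -0.39 ± 0.09 (SE) in the SMOC2 comparison and -0.24 ± 0.09 in the WT comparison (edgeR adjusted p 0.00153 and 0.0323), the WT call was lost in 5 of 7 fits with 1 library left out (-0.17 without WT normal 2), and both values were above 0 with library totals, at 0.11 and 0.24. Psmb5 was at 17.1, 18.8, 18.3 and 16.15 CPM in SMOC2 UUO, against 23.6, 25.25 and 24.1 CPM in SMOC2 normal, without overlap. It was at 16.0, 15.15, 18.6 and 17.2 CPM in WT UUO, against 18.4, 24.8 and 17.4 CPM in WT normal, which overlapped. The log2 fold changes were -0.47 ± 0.12 (SE) in the SMOC2 comparison and -0.27 ± 0.12 in the WT comparison, of which edgeR called the first (adjusted p 0.00333 and 0.0657), and with library totals they were 0.03 and 0.21.

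The inducible subunits, which are outside the rule, moved the other way. Psmb8 averaged 59.6 ± 13.65 CPM in SMOC2 UUO (SD, n = 4), against 8.86 ± 2.18 in SMOC2 normal (SD, n = 3), and 63.3 ± 10.45 CPM in WT UUO (SD, n = 4), against 8.51 ± 2.79 in WT normal (SD, n = 3). Its log2 fold change was 2.75 ± 0.25 (SE) in the SMOC2 comparison and 2.89 ± 0.25 in the WT comparison. Psmb9 changed by 1.84 and 2.31 and Psmb10 by 2.17 and 2.14 on the log2 scale, all called by edgeR with adjusted p-values of at most 2.8e-06. Per length, Psmb8 was at 1.90 ± 0.56 times the level of Psmb5, its constitutive counterpart, in SMOC2 UUO (SD, n = 4), against 0.20 ± 0.04 times in SMOC2 normal (SD, n = 3). The ratio was 2.10 ± 0.39 in WT UUO (SD, n = 4), against 0.24 ± 0.10 in WT normal (SD, n = 3). Psmb10 over Psmb7 was 1.499 ± 0.13 in SMOC2 UUO, against 0.20 ± 0.03 in SMOC2 normal, and 1.60 ± 0.34 in WT UUO, against 0.23 ± 0.01 in WT normal (SD, n = 4 for UUO and 3 for normal groups). Psmb9 stayed well below Psmb6 at 0.094 ± 0.016 times its level in SMOC2 UUO, against 0.0198 ± 0.0008 in SMOC2 normal, and 0.115 ± 0.023 in WT UUO, against 0.0197 ± 0.0072 in WT normal (same n). Since Psmb5, Psmb6 and Psmb7 have processed pseudogenes and exons of Psmb7 overlap Nek6, the size of these ratios is uncertain.

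**Figure D5:**
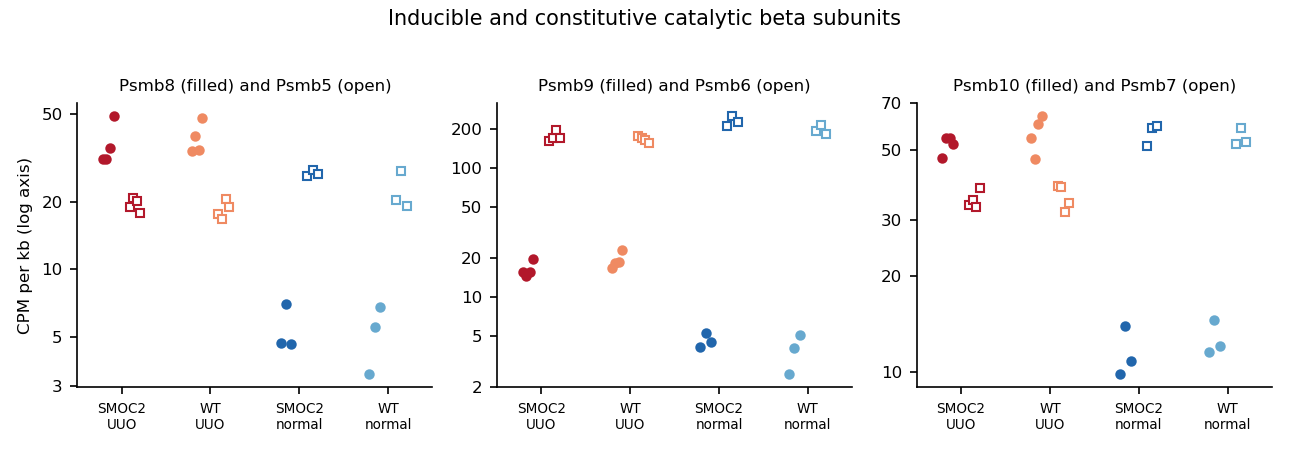
CPM per kb of transcript on a log axis, 1 symbol per library, for each inducible catalytic subunit (filled circles) and its constitutive counterpart (open squares). Psmb8 lies above Psmb5 and Psmb10 above Psmb7 in every UUO library and below it in every normal library, while Psmb9 lies below Psmb6 throughout.

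The genes of the interferon-gamma response moved with the inducible subunits and PA28. Of 12 such genes, 11 rose in both comparisons, with median log2 fold changes of 2.32 in both and a summed level of 1782 to 2623 CPM in SMOC2 UUO and 1883 to 2902 CPM in WT UUO, against 796.5 to 914 CPM in SMOC2 normal and 737 to 945 CPM in WT normal. Irf1, a transcription factor of this response, averaged 99.55 CPM in SMOC2 UUO and 98.7 CPM in WT UUO, against 18.4 CPM in SMOC2 normal and 19.7 CPM in WT normal. T cell markers rose too, 6 of 8 in the SMOC2 comparison and 7 of 8 in the WT comparison, with sums of 38.0 to 60.8 CPM in SMOC2 UUO and 27.9 to 64.2 CPM in WT UUO, against 9.74 to 19.2 CPM in SMOC2 normal and 5.98 to 12.6 CPM in WT normal. The part of immune cells in the levels of Psme1, Psme2 and the inducible subunits was not tested.

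Psmd3 changed most among the core subunits. It encodes a scaffold subunit (Rpn3 in yeast) of the 19S lid, the part that removes ubiquitin from substrates. Psmd3 was at 148.4, 156.3, 153.3 and 143.6 CPM in SMOC2 UUO, against 349.1, 359.2 and 371.2 CPM in SMOC2 normal. It was at 125.3, 141.2, 128.2 and 123.1 CPM in WT UUO, against 272.3, 314.6 and 270.6 CPM in WT normal. No UUO library came near a normal one. The log2 fold change was -1.26 ± 0.08 (SE) in the SMOC2 comparison and -1.14 ± 0.08 in the WT comparison (edgeR adjusted p 2.3e-08 and 5.3e-08), and it stayed below 0 and called with library totals, at -0.76 and -0.67. Among core subunits in normal kidney it had the second or the third highest level per length, at 167.5 CPM per kb in SMOC2 normal and 133.1 in WT normal, and after UUO it had 70.03 in SMOC2 UUO and 60.3 in WT UUO, close to the medians of the core subunits of 63.7 and 61.1 in those groups.

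The other 10 lid and base subunits without ATPase activity moved far less. In the SMOC2 comparison Psmd8 rose and Psmd6, Psmd12 and Psmd13 fell with TMM scaling, and in the WT comparison Psmd8 rose and Psmd1, Psmd6, Psmd11 and Psmd12 fell. Of all genes, 32.5% rose and 30.4% fell in the SMOC2 comparison, and 31.3% and 29.8% in the WT comparison. All falls of these subunits but that of Psmd3 were above 0 with library totals. Without SMOC2 normal 3 the calls of Psmd12 and Psmd13 were lost (log2 fold changes -0.21 and -0.20). Without WT normal 2 those of Psmd1, Psmd6, Psmd11 and Psmd12 were lost (-0.19, -0.16, -0.16 and -0.25), and Psmd1 was not called in 6 of 7 and Psmd6 in 4 of 7 fits that left out 1 library. Psmd8, a lid subunit (Rpn12 in yeast), was at 209.3, 208.2, 207.8 and 213.4 CPM in SMOC2 UUO, against 182.2, 176.5 and 179.0 CPM in SMOC2 normal. It was at 212.8, 220.5, 210.7 and 223.2 CPM in WT UUO, against 176.8, 189.4 and 167.5 CPM in WT normal. Its rise was small and even, with log2 fold changes of 0.23 ± 0.07 (SE) and 0.29 ± 0.07 in the SMOC2 and WT comparisons (edgeR adjusted p 0.00761 and 0.00167). The deubiquitinase Psmd14, Psmd2, Psmd4, a ubiquitin receptor, and Psmd7 were called in neither comparison with TMM scaling, with log2 fold changes between -0.14 and 0.11. With library totals they were at 0.36 to 0.52 in the SMOC2 comparison and 0.35 to 0.59 in the WT comparison.

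The 6 ATPases of the base, which form the ring that unfolds substrates, all had log2 fold changes below 0 in both comparisons with TMM scaling, from -0.43 to -0.14 in the SMOC2 comparison and from -0.37 to -0.06 in the WT comparison. Psmc1, Psmc2, Psmc3 and Psmc5 were called in the SMOC2 comparison, and Psmc2, Psmc3 and Psmc6 in the WT comparison. Of all genes, 30.4% were called lower in the SMOC2 comparison and 29.8% in the WT comparison. Without SMOC2 normal 3 the calls of Psmc1, Psmc2 and Psmc5 were lost (-0.17, -0.21 and -0.20), and without WT normal 2 those of Psmc2 and Psmc6 (-0.21 and -0.16), while Psmc3 was called in each fit that left out 1 library. Psmc3 was at 175.3, 164.9, 178.4 and 184.2 CPM in SMOC2 UUO, against 218.3, 256.8 and 234.8 CPM in SMOC2 normal. It was at 169.6, 182.7, 179.6 and 160.7 CPM in WT UUO, against 208.1, 256.9 and 207.0 CPM in WT normal, and neither pair of groups overlapped. With library totals the sign of all these calls turned, Psmc3 having log2 fold changes of 0.07 and 0.10 in the SMOC2 and WT comparisons, not called. Psmc4 changed least, at -0.14 ± 0.08 (SE) in the SMOC2 comparison and -0.06 ± 0.08 in the WT comparison, and was not called with TMM scaling in either.

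The alpha ring, through whose gate substrates enter, had 0 members higher and 2 lower of 7 in the SMOC2 comparison (Psma2 and Psma4), and 1 higher and 1 lower in the WT comparison (Psma5 and Psma4). Shares of all genes were 32.5% higher and 30.4% lower in the SMOC2 comparison, and 31.3% and 29.8% in the WT comparison. Without SMOC2 normal 3 the call of Psma2 was lost (-0.12). Psma5 was at 32.6, 32.7, 28.8 and 33.6 CPM in SMOC2 UUO, against 25.2, 33.3 and 24.4 CPM in SMOC2 normal, where SMOC2 normal 3 overlapped the UUO libraries. It was at 35.8, 37.1, 33.8 and 36.4 CPM in WT UUO, against 23.8, 31.7 and 26.1 CPM in WT normal, and rose by 0.40 ± 0.12 (SE) on the log2 scale (edgeR adjusted p 0.00952), a call that was lost without WT normal 1, at 0.31 (adjusted p 0.0575). The value in the SMOC2 comparison was 0.21 (adjusted p 0.139) and was called without SMOC2 normal 3, at 0.37. Psma4 had log2 fold changes of -0.32 ± 0.11 (SE) in the SMOC2 comparison and -0.37 ± 0.11 in the WT comparison (edgeR adjusted p 0.0250 and 0.0108), and both turned above 0 with library totals, at 0.18 and 0.10. The SMOC2 call was lost in 3 of 7 fits with 1 library left out, at -0.22 without SMOC2 normal 3, and the WT call without WT normal 2, at -0.25. Of the 4 non-catalytic beta subunits, which complete the inner rings, Psmb1, Psmb3 and Psmb4 fell in the SMOC2 comparison and Psmb3 in the WT comparison with TMM scaling, and all were above 0 with library totals. The call of Psmb3 was lost without SMOC2 normal 3 in the SMOC2 comparison (-0.24), and in 5 of 7 fits in the WT comparison, at -0.15 without WT normal 2. Psmb2 was called in neither with TMM scaling, at 0.06 and 0.09, and was at 0.56 and 0.57 with library totals.

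The assembly chaperones moved in both directions. Psmg1, which pairs with the product of Psmg2 to build the alpha ring, was at 16.1, 18.98, 22.7 and 18.02 CPM in SMOC2 UUO, against 29.5, 35.2 and 29.8 CPM in SMOC2 normal. It was at 20.4, 21.5, 20.3 and 18.1 CPM in WT UUO, against 27.55, 34.2 and 29.5 CPM in WT normal. Groups did not overlap, and the log2 fold changes were -0.73 ± 0.12 (SE) in the SMOC2 comparison and -0.60 ± 0.12 in the WT comparison (edgeR adjusted p 9.7e-05 and 0.00058), while with library totals they were -0.24 and -0.12 and not called. Its partner Psmg2 had -0.11 and -0.03 and was called in neither with TMM scaling, and had 0.39 and 0.44 with library totals. Psmg3 and Psmg4, the other pair, were not called with TMM scaling either.

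For the 19S base, Psmd10 (gankyrin), Psmd5 and Psmd9 each hold a different pair of ATPases during assembly. Psmd9 was at 23.4, 23.4, 27.0 and 27.9 CPM in SMOC2 UUO, against 47.4, 41.7 and 45.7 CPM in SMOC2 normal. It was at 25.9, 27.4, 28.9 and 26.3 CPM in WT UUO, against 37.7, 43.0 and 40.55 CPM in WT normal. Its log2 fold changes were -0.82 ± 0.09 (SE) in the SMOC2 comparison and -0.57 ± 0.09 in the WT comparison (edgeR adjusted p 1.6e-06 and 4.8e-05), and with library totals -0.32 and -0.10, of which the first was called. A long non-coding RNA gene on the opposite strand covers 25.5% of its exon bases, so its counts are uncertain.

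Psmd10 was the chaperone that rose with TMM scaling. It was at 27.8, 29.4, 29.9 and 28.8 CPM in SMOC2 UUO, against 21.85, 21.9 and 21.9 CPM in SMOC2 normal. It was at 33.7, 26.1, 34.0 and 30 CPM in WT UUO, against 22.0, 22.6 and 21.0 CPM in WT normal. The 6 normal libraries were within 2 CPM of each other, and all 8 UUO libraries were above them. The log2 fold changes were 0.40 ± 0.09 (SE) in the SMOC2 comparison and 0.50 ± 0.09 in the WT comparison (edgeR adjusted p 0.00135 and 0.000235). Psmd5 fell with TMM scaling by 0.29 in the SMOC2 comparison and 0.32 in the WT comparison on the log2 scale, and was above 0 with library totals, at 0.21 and 0.15.

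Members outside the particle were scarce or uneven. Psma8 had at most 1.33 CPM in any library. It was at 0.342, 0.436, 0.212 and 0.731 CPM in SMOC2 UUO, against 0.501, 0.333 and 0 CPM in SMOC2 normal, which overlapped (log2 fold change 0.65, edgeR adjusted p 0.428). It was at 1.33, 0.808, 0.460 and 0.641 CPM in WT UUO, against 0.132, 0.168 and 0.195 CPM in WT normal (log2 fold change 2.26 ± 0.68, SE, edgeR adjusted p 0.0107). Psma8 had at most 37 counts in any library and passed the filter on low counts only through UUO libraries. Its rise in the WT comparison is thus not independent of the filter, also where it enters a count of rises. Psmc3ip, a recombination factor, varied most within groups. It was at 11.55, 11.6, 19.5 and 5.20 CPM in SMOC2 UUO, against 14.5, 15.0 and 14.4 CPM in SMOC2 normal. It was at 11.7, 4.54, 4.74 and 4.40 CPM in WT UUO, against 2.51, 19.6 and 3.19 CPM in WT normal. The groups overlapped in both comparisons, and 21.2% of its exon bases are shared with Mlx on the opposite strand.

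With each library left out in turn, 5 of 5 rises and 12 of 20 falls of the SMOC2 comparison were called in each of 7 fits, while 80.8% of the rises and 82.1% of the falls of all genes were. Leaving out SMOC2 normal 3 alone kept 12 of the 20 falls, against 91.1% of those of all genes, with a median of -0.14 over the members. In the WT comparison 6 of 7 rises (85.7%) and 8 of 18 falls (44.4%) were called in each of 7 fits, against 80.8% and 81.4% over all genes. Leaving out WT normal 2 alone kept 7 of the 7 rises and 8 of the 18 falls, against 90.2% and 90.35% over all genes, and gave 10 rises in all, with Psma1, Psma7 and Psmg3 added, and a median of -0.05. These shares were not tested against each other. SMOC2 normal 3 and WT normal 2 were singled out because core subunits were highest in them within their groups. Leaving out a normal library picked in this way shrinks the falls of these genes by construction. The shares kept without these libraries therefore cannot decide whether falls of the members were less stable than those of all genes. The falls called in each of 7 fits in both comparisons were those of Psmb7, Psmc3, Psmd3, Psmd5, Psmd9, Psme4 and Psmg1.

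No proteasome gene was called by genotype label in the edgeR tests. Of 46 members, 0 were called by edgeR between SMOC2 UUO and WT UUO, where 0.831% of all genes were, 0 between SMOC2 normal and WT normal, where 0.0279% were, and 0 by the interaction of genotype with UUO, where 0.0% were. At an unadjusted p under 0.05 there were 2, 2 and 0 members, while 15.2%, 12.8% and 6.44% of all genes passed. The median half-width of the 95% interval was 0.18, 0.21 and 0.27 on the log2 scale in these tests. Groups did not overlap for 1 member above and 3 below in SMOC2 UUO against WT UUO, where 5.42% and 4.43% of all genes did so, and for 2 above and 3 below in SMOC2 normal against WT normal, where 8.84% and 8.01% did so. DESeq2 called 1, 1 and 0 members, against 4.18%, 0.971% and 0.139% of all genes, and the member was Psmd3 both times.

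Psmd3 was higher in every library labelled SMOC2 than in every WT library of the same state. Between SMOC2 UUO and WT UUO the log2 fold change was 0.22 ± 0.07 (SE), with an adjusted p of 0.170 by edgeR and 0.0345 by DESeq2. Between SMOC2 normal and WT normal it was 0.33 ± 0.08, with an adjusted p of 0.210 by edgeR and 0.00718 by DESeq2. No other member reached the threshold in these tests by either tool. The lowest adjusted p of the interaction was 0.789, for Psmb1, Psmd9, Psme2 and Psme3, with log2 values of -0.26, -0.25, -0.25 and 0.23.

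Genes that work with the proteasome under other names were read from lists, here and in the next paragraph with TMM scaling. In the SMOC2 comparison 32.5% of all genes were higher and 30.4% lower with that scaling, and in the WT comparison 31.3% and 29.8%. Library totals moved the median of all genes from 0.04 to 0.54 in the SMOC2 comparison and from 0.05 to 0.52 in the WT comparison. Falls smaller than this shift may therefore lie above 0 with library totals. Of 17 subunits, receptors and cofactors not named Psm, 3 rose and 5 fell in the SMOC2 comparison, and 2 rose and 7 fell in the WT comparison, with medians of -0.05 and -0.12 on the log2 scale. Ubqln1, which carries ubiquitinated substrates to the 19S particle, fell by 0.64 in the SMOC2 comparison and by 0.83 in the WT comparison. Adrm1, a ubiquitin receptor of the 19S particle, fell by 0.40 and 0.41. Usp14, a proteasome-bound deubiquitinase, rose by 0.39 in the SMOC2 comparison and 0.21 in the WT comparison.

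Of 8 genes of the NRF1 axis, 0 rose and 4 fell in each comparison with TMM scaling, but not the same 4. Nfe2l1 averaged 267 ± 12.7 CPM in SMOC2 UUO (SD, n = 4), against 308 ± 42.2 in SMOC2 normal (SD, n = 3), and 254 ± 14.5 CPM in WT UUO (SD, n = 4), against 295 ± 20.4 in WT normal (SD, n = 3). Its log2 fold changes of -0.21 in both were not called by edgeR (adjusted p 0.0748 in the SMOC2 comparison and 0.0667 in the WT comparison). Ngly1, the glycanase that processes NRF1, fell by 0.72 in the SMOC2 comparison and 0.88 in the WT comparison, and Ddi2, the protease that cleaves it, by 0.70 and 0.69. Vcp, the ATPase that extracts NRF1 and other substrates from membranes, was the member of these lists that differed by genotype. It averaged 131.6 CPM in SMOC2 UUO, against 120.1 CPM in SMOC2 normal, and 89.3 CPM in WT UUO, against 107.7 CPM in WT normal. It was at 124.3, 128.3, 147.2 and 126.5 CPM in SMOC2 UUO, against 90.0, 88.4, 87.0 and 91.8 CPM in WT UUO, with a log2 fold change of 0.56 ± 0.08 (SE, edgeR adjusted p 0.00725). Of 7 ubiquitin genes and E1 enzymes, 2 rose and 2 fell in the SMOC2 comparison, and 2 rose and 1 fell in the WT comparison, with the rise of Uba7, the interferon-induced E1 of ISG15, the largest at 1.74 and 1.48 on the log2 scale.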

How the data were processed

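Libraries of messenger RNA were made from frozen kidney with a stranded kit, per the labels' protocols, and per the submitters' processing notes STAR 2.4.1d, featureCounts 1.4.4 of Subread and build mm10 were used. For the counting strand and the gene models, nothing is given in the sources used here. What the authors deposited are unnormalized counts of each library by Ensembl gene, as whole numbers. Symbols, coordinates and APPRIS principal transcript lengths came from the GENCODE annotation of GRCm38, which matched 47310 of 47729 identifiers. The other 419 held 0.029% of the counts.

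The counts of 14 libraries were filtered by filterByExpr and scaled by TMM. A model with 4 group means was fitted to every library by edgeR 4.0.16 under R 4.3.3, and 5 comparisons were made with its quasi-likelihood test, with Benjamini-Hochberg adjustment over 17926 genes. Levels are CPM on scaled library sizes. Counting error is small for most members at this depth, of 19483994 counts or more. Amplified reads are not independent molecules.

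The members and lists were chosen with earlier results of these data known. Members could be named freely, with values per library for the catalytic, activator and inhibitor genes, the highest and lowest change of each role, and the most variable members, and outside genes were the inducible subunits, Nfe2l1, Smoc2 and up to 4 per list with the smallest p. Usp14 was named after its values were seen. Alternatives were median-ratio, upper-quartile and library-total scaling (the last chosen after seeing the data), DESeq2 1.42.0, voom of limma 3.58.1, no filter, a minimum of 50 counts in 3 libraries, a replicate block, fits on the compared groups alone, and fits without each library in turn. The fit was tried on simulated counts with known changes. That simulation changed a small set of genes in WT UUO alone, as many up as down, so it could not test the choice of scaling. No 2 libraries agreed within sampling noise.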

Additional observations from a re-analysis of the deposited data

Results flagged for a closer look

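In groups of 4 libraries, 5 of 92 tests over the members found 1 library far from the other 3, by the gap to its nearest neighbour over the range of the group, and chance alone flags about 1 in 20 such groups. Psma7 was at 130.4 CPM in SMOC2 UUO 3, with the others at most 124.3 CPM. Psmb1 was at 131.1 CPM in the same library, with the others at most 114.0 CPM. Psme1 was at 136.3 CPM in WT UUO 4, with the others at most 122.5 CPM, so the other WT UUO libraries were still well above the normal ones. Psmd14, the deubiquitinase of the 19S lid, was at 42.97 CPM in WT UUO 3, with the others at least 59.98 CPM. Psmc3ip was at 11.74 CPM in WT UUO 1, with the others at most 4.74 CPM.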

How the results depend on the processing

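The counts and medians over members kept their direction and size with median-ratio scaling, no filter, at least 50 counts in 3 libraries, limma-voom and only the groups compared, where the interaction could not be fitted. Upper-quartile scaling left 9 falls and a median of -0.082 in the SMOC2 comparison of UUO with normal, and 8 falls and a median of -0.052 in the WT comparison, and turned Psme3 to 0.0068 in the SMOC2 comparison and Psmc4 to 0.048 in the WT comparison on the log2 scale. Library totals gave 29 rises, 3 falls and a median of 0.30 in the SMOC2 comparison, and 31 rises, 1 fall and a median of 0.31 in the WT comparison, while 57.9% of all genes rose and 15.6% fell in the SMOC2 comparison and 56.1% and 15.2% in the WT comparison. The medians of the members and of all genes shifted by nearly the same amount. With TMM and with library totals, the first minus the second was -0.23 in the SMOC2 comparison and -0.21 in the WT comparison. With library totals these members turned above 0 in the SMOC2 comparison: Psma2 0.30, Psma4 0.18, Psmb1 0.16, Psmb3 0.13, Psmb4 0.13, Psmb5 0.031, Psmb6 0.11, Psmc1 0.30, Psmc2 0.21, Psmc3 0.070, Psmc3ip 0.21, Psmc4 0.36, Psmc5 0.21, Psmd5 0.21, Psmd6 0.17, Psmd12 0.21, Psmd13 0.24, Psme3 0.39 and Psmf1 0.37. In the WT comparison they were Psma4 0.10, Psmb3 0.15, Psmb5 0.21, Psmb6 0.24, Psmc2 0.21, Psmc3 0.10, Psmc3ip 0.13, Psmc4 0.41, Psmc6 0.27, Psmd1 0.27, Psmd5 0.15, Psmd6 0.23, Psmd11 0.22, Psmd12 0.18, Psme3 0.13 and Psmf1 0.27. DESeq2 called 1 member higher between SMOC2 UUO and WT UUO and 1 between SMOC2 normal and WT normal, both Psmd3, and the cause was not tested.

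With each library left out in turn, falls ranged from 12 to 21 in the SMOC2 comparison and from 8 to 19 in the WT comparison, the WT median from -0.21 to -0.052 and the interaction median from -0.17 to -0.031. The lowest counts came without SMOC2 normal 3 and without WT normal 2. Psmg3 ranged from -0.047 to 0.29 in the SMOC2 comparison, and Psmc4 from -0.11 to 0.018 and Psmc3ip from -0.86 to 1.15 in the WT comparison. Psmc3ip in the WT comparison was also 0.22 with limma-voom and 0.10 with the replicate block. With the block, 5 members rose and 22 fell in the SMOC2 comparison, and 7 rose and 14 fell in the WT comparison. Over 18 same-numbered pairs the correlation of deviations was -0.1 to 0.132, against -0.105 to 0.114 for other pairs. No pairing by number was detected, and with so few libraries in a group this cannot exclude it. Of 14 libraries, 4 correlated best with a library of their own number.

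Psma8 and Psme2b had so few counts that only large changes were detectable at this depth, and Psmc3ip varied too much within groups for a change to be resolved.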
